A study of Zea mays with 6 samples.

Results

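The glossy genes of maize are known from mutants whose seedling leaves lack much of their surface wax and look shiny. The genes gl1 (Zm00001d020557), gl2 (Zm00001d002353) and gl8 (Zm00001d017111) were examined here, 3 of the 44351 listed for each library. They were chosen by identifier, with earlier results of these data known. The pairing of the names with these identifiers comes from that choice: neither the deposited tables nor the reference table used here pairs them, although the reference table lists gl1, glossy2 and gl8 as gene names. RNA was sequenced from leaves of KN5585, a maize inbred line, with 3 control libraries (plants without the transgene) and 3 libraries of 1 transgenic strain. The series title names ZmSUS1, a sucrose synthase gene, as overexpressed; no source used here gives the promoter of the transgene. Both groups carry a time point of 3 days after drought in the sample labels, and the series text gives 5 days. The treatment label of the control libraries is normal and that of the others is transgenic. If the control plants were not under drought, drought and the transgene cannot be told apart in any difference below. The series calls the libraries biological replicates, but the labels do not tie them to separate plants, so each p-value measures the spread between libraries, which may be technical. Because all the strain's libraries come from 1 strain, effects of the transgene and of that strain cannot be told apart.

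Cuticular wax is a mixture of very-long-chain lipids that epidermal cells export to the leaf surface, where it limits water loss through the cuticle. Fatty acids are first lengthened at the endoplasmic reticulum by the fatty acid elongase complex, and the long chains are then turned into aldehydes, alkanes, alcohols and esters. In maize the wax coat of juvenile leaves is heavy, and many glossy mutants were found by the water droplets that cling to their seedling leaves. The gl8 gene encodes a ketoacyl reductase of the elongase. The gl2 gene encodes a protein related to BAHD acyltransferases and to CER2 of Arabidopsis, which acts with the elongase to make the longest chains. The gl1 gene encodes a membrane protein related to CER3 of Arabidopsis, which takes part there in making alkanes from the long chains.

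The 3 genes differed in direction. The gl1 transcript was about 4 times as abundant in the transgenic leaves, 32.0 ± 0.4 against 7.73 ± 0.28 FPKM (SD, n = 3 each). The gl2 transcript was slightly higher there and the gl8 transcript lower, as deposited. FPKM divides a gene's fragments by its length and by the library's mapped fragments, so levels of different genes can be compared per length. It is a share of each library, and most genes were lower in the transgenic libraries: the median log2 difference of the 22944 genes tested was -0.56. The rise of gl1 passed the test as deposited and under each of the 4 scalings between libraries that were tried, whereas gl2 failed it under 1 of them and gl8 under 2. Most tested genes passed too: of the 22944, 19278 as deposited and between 16657 and 20238 under the 4 scalings. Passing by itself therefore did not set gl1 apart. In bulk leaf RNA, fewer cells of a type, such as the epidermal cells that make wax, and less RNA per cell cannot be told apart. The total FPKM of the listed genes lay between 684047 and 689548 in the control libraries and between 829541 and 831082 in the transgenic libraries. The number of fragments behind the values is unknown, so no counting interval was computed.

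**Figure D1:**
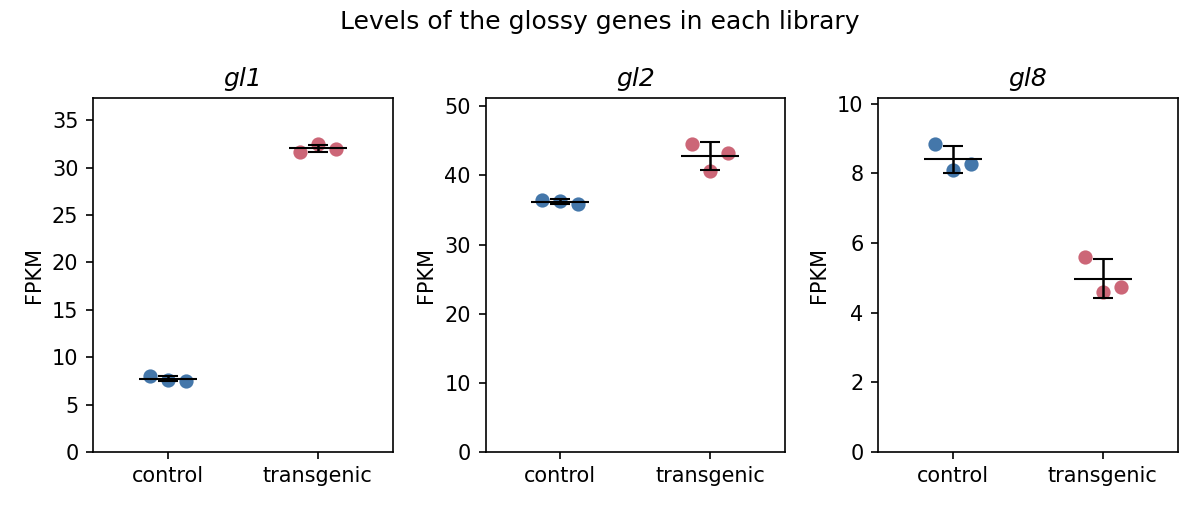
Levels of gl1, gl2 and gl8 in FPKM (vertical axes from 0, a different range in each panel) by group. Each point is 1 library, the horizontal bar is the mean of 3 libraries and the whiskers are 1 SD; the points of the groups do not overlap in any panel.

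Of the elongase-related genes, gl8 had 8.84, 8.09 and 8.28 FPKM in control replicates 1 to 3, and 5.61, 4.60 and 4.73 FPKM with the transgene. All transgenic values lay below all control values, and transgenic replicate 1 was the highest of its group. The means were 8.40 ± 0.39 and 4.98 ± 0.55 FPKM (SD, n = 3 each), a ratio of transgenic to control of 0.593. The log2 difference of (FPKM + 1) was -0.66 ± 0.08 (SE), with a 95% interval from -0.84 to -0.47 and a limma adjusted p of 7.1e-05 (Benjamini-Hochberg over all tested genes). That difference lay 0.10 below the median of all tested genes on the log2 scale, and 43.8% of tested genes had a lower one. After median-of-ratios scaling, which removes the shift shared by most genes, gl8 had means of 6.58 ± 0.31 (control) and 6.27 ± 0.71 (transgenic) scaled FPKM (SD, n = 3 each), and the groups overlapped. The log2 difference was then -0.065, with a 95% interval from -0.26 to 0.13 and a limma adjusted p of 0.50.

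The gl2 gene was the most abundant of the 3 in each library. Its control level was 36.49, 36.33 and 35.83 FPKM, and its level in transgenic leaves was 44.53, 40.60 and 43.25 FPKM. The control libraries lay close together, with a coefficient of variation of 0.951%, and all were below the lowest transgenic library. The means were 36.2 ± 0.3 and 42.8 ± 2.0 FPKM (SD, n = 3 each), a 1.18-fold difference, and the log2 difference of (FPKM + 1) was 0.23 ± 0.04 (SE; limma adjusted p = 0.00059). With each library brought to an equal FPKM total, gl2 had means of 40.0 ± 0.6 (control) and 39.1 ± 1.8 (transgenic) scaled FPKM (SD, n = 3 each), and the log2 difference was -0.035, with a 95% interval from -0.13 to 0.06 (limma adjusted p = 0.42). After median-of-ratios scaling it was 0.90 ± 0.04 (SE; limma adjusted p = 1.9e-07), from 28.4 ± 0.4 to 53.9 ± 2.8 scaled FPKM (SD, n = 3 each). The size of the gl2 difference and its call therefore depended on the scaling. Its sign was positive under each scaling but that of equal totals, where the interval included 0.

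The gl1 gene, which acts after elongation by the role of its Arabidopsis relative, had 8.04, 7.63 and 7.51 FPKM in control leaves. In transgenic leaves it had 31.69, 32.48 and 31.93 FPKM. The groups did not overlap, and the gap between them was many times the spread within either. The ratio of the means was 4.15, and the log2 difference of (FPKM + 1) was 1.92 ± 0.04 (SE), with a 95% interval from 1.82 to 2.02 and a limma adjusted p of 2.6e-09. It was 1.67 at equal FPKM totals and 2.55 under median-of-ratios scaling, with limma adjusted p of 5.0e-09 and 3.6e-10. In scaled FPKM the mean then went from 6.05 ± 0.23 to 40.3 ± 0.3 (SD, n = 3 each), a 6.66-fold difference. For each of the 3 genes an exact permutation test over libraries of the deposited FPKM gave a two-sided p of 0.1, the smallest that 3 against 3 libraries allow.

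**Figure D2:**
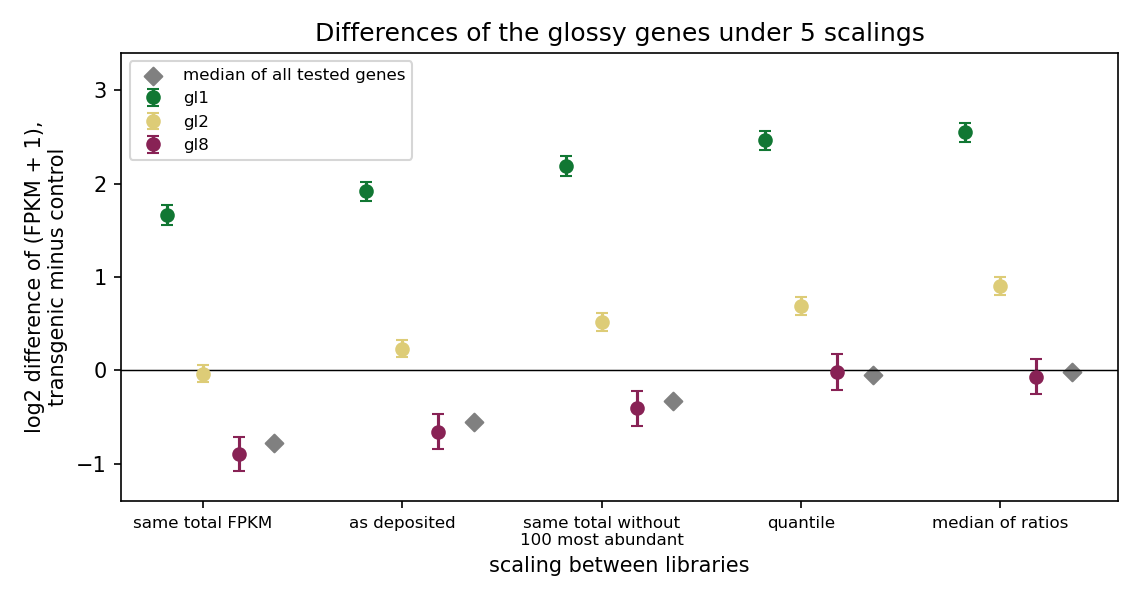
Log2 difference of (FPKM + 1), transgenic minus control (vertical axis), of gl1, gl2 and gl8 under 5 scalings between libraries (horizontal axis). Circles are limma estimates with 95% intervals from 3 libraries per group and grey diamonds are the median of all tested genes; gl1 lies at 1.67 or above throughout, the gl2 interval includes 0 with the same total FPKM, and the gl8 interval includes 0 with quantile normalisation and median-of-ratios scaling.

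All 3 genes passed the threshold as deposited, 2 higher and 1 lower. Of all tested genes 84.0% were called, 16.3% higher and 67.7% lower, and in 84.5% the groups did not overlap, so that being called did not set the glossy genes apart. After median-of-ratios scaling gl1 and gl2 were called higher and gl8 was not called, against 73.2% of all tested genes called, 36.3% higher and 36.9% lower. At equal FPKM totals gl1 and gl8 were called and gl2 was not, against 88.2% of tested genes called. The size of the gl1 difference placed it near the upper end of the distribution: 313 of the 22944 tested genes had a larger log2 difference as deposited and 290 after scaling. For gl2, 3688 genes had a larger difference as deposited and 3103 after scaling. The gl8 gene lay near the middle, with 12902 and 12205 genes above it. A rise of at least 1 on the log2 scale past the threshold, as in gl1, occurred in 5.56% of tested genes as deposited and in 11.7% after scaling.

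**Figure D3:**
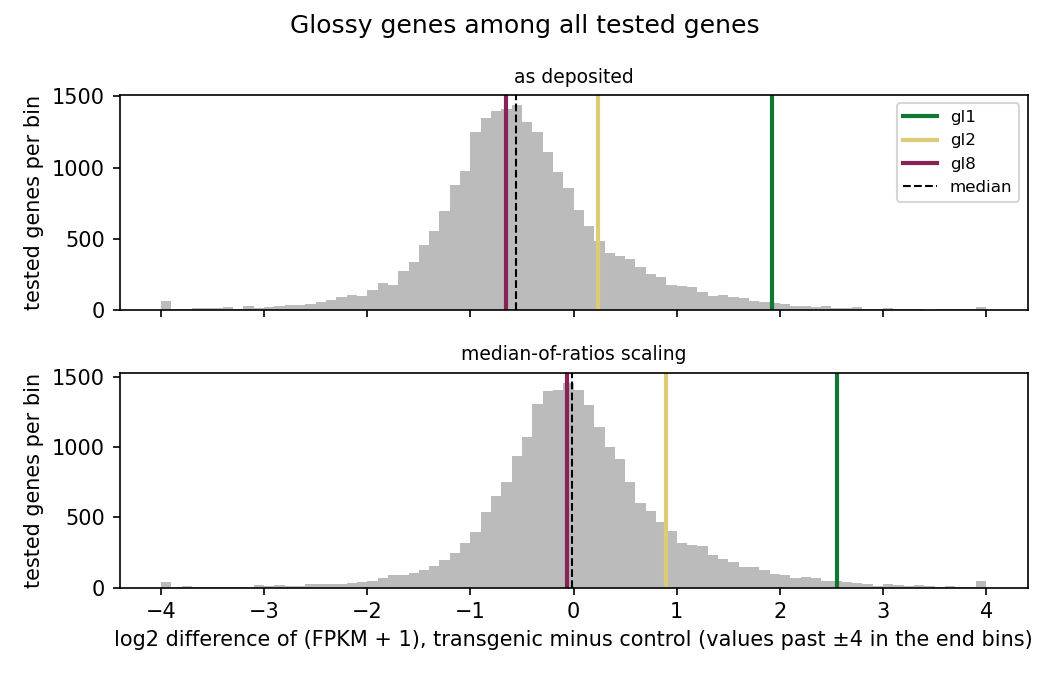
Number of tested genes (vertical axes) per 0.1-wide bin of the log2 difference of (FPKM + 1), transgenic minus control (horizontal axis), as deposited and after median-of-ratios scaling. Coloured lines mark gl1, gl2 and gl8 and the dashed line the median of all tested genes, -0.56 as deposited and -0.015 after scaling; gl8 lies beside the median in both panels and gl1 in the upper tail.

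The rank of a gene within its library does not depend on the scaling. It does depend on the other genes, most of which were lower in the transgenic libraries as deposited. A gene can therefore move up in rank without a rise in its own level. The gl1 gene was ranked 12347, 12630 and 12706 from the top in the control libraries and 2809, 2773 and 2811 in the transgenic libraries. It thus moved from above 57.1% ± 0.8 to above 90.1% ± 0.1 of the genes with a value above 0 (SD, n = 3 each). The gl2 gene was ranked 3543, 3570 and 3642 in the control and 1980, 2207 and 2046 in the transgenic libraries, and the groups did not overlap. The gl8 gene was ranked 11796, 12292 and 12165 in the control and 11421, 12640 and 12467 in the transgenic libraries. Its ranks overlapped between the groups (exact permutation test, two-sided p = 0.9), although its FPKM values did not. The exact permutation p of the ranks of gl1 and gl2 was 0.1 each, the smallest possible.

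Ratios between the glossy genes within a library are unchanged by any scaling that multiplies a whole library by 1 factor, though not by quantile normalisation. The order of levels in the control leaves was gl2, gl8, gl1, and in the transgenic leaves gl2, gl1, gl8. In the control libraries gl8 exceeded gl1 by only 0.677 ± 0.188 FPKM (SD, n = 3), in 3 of 3 libraries. An exact sign-flip test of that difference gave a two-sided p of 0.25, the smallest that 3 libraries allow. With the transgene, gl1 exceeded gl8 by 27.1 ± 0.9 FPKM (SD, n = 3), in 3 of 3 libraries.

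The ratio of gl1 to gl8 was 0.910, 0.943 and 0.907 in the control libraries and 5.65, 7.06 and 6.75 in the transgenic libraries. A near-equal pair had thus become unequal in each transgenic library. The change was 2.81 on the log2 scale, or 7.02-fold, against a pooled SD between libraries of 0.12. After adding 1 to each FPKM it was 2.58. On that scale gl1 lay 2.48 above the median difference of all tested genes, and gl8 lay 0.10 below that median. The ratio of gl1 to a gene at the median thus changed by a similar amount. The ratio of gl1 to gl2 was 0.220, 0.210 and 0.210 in the control and 0.712, 0.800 and 0.738 in the transgenic libraries, a change of 1.81 on the log2 scale, or 3.51-fold. So gl1 approached the level of gl2 without reaching it in any library. The ratio of gl2 to gl8 went from 4.13, 4.49 and 4.33 to 7.94, 8.83 and 9.14, a change of 1.00 on the log2 scale. None of these 3 ratios overlapped between the groups. Among all other tested genes, the ratio to gl1 did not overlap in 96.6%, that to gl2 in 87% and that to gl8 in 67%, so that separation by itself did not set these pairs apart. For the 3 pairs, the exact permutation p was 0.1 each (two-sided; 0.1 after Benjamini-Hochberg adjustment over the 3 pairs), the smallest possible.

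**Figure D4:**
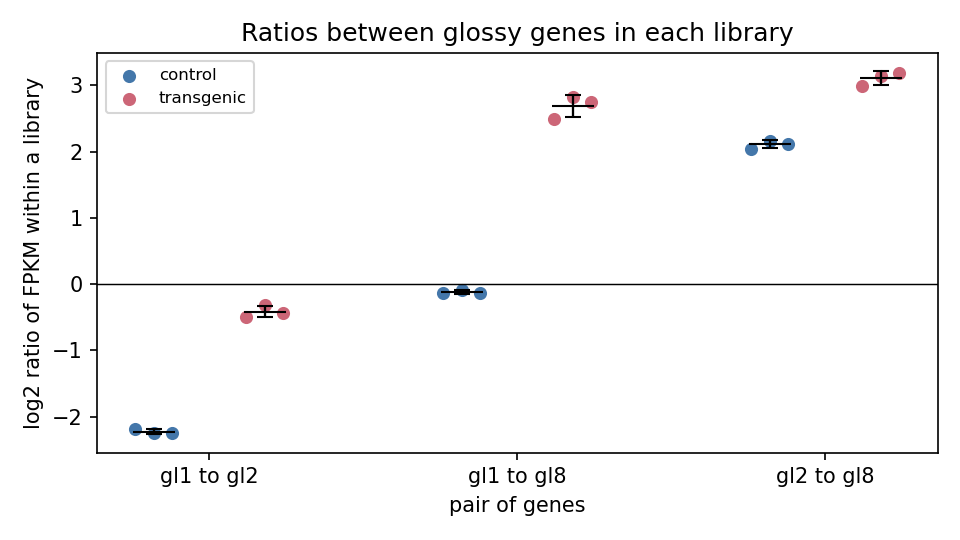
Log2 ratio of FPKM between 2 glossy genes of the same library (vertical axis) for the 3 pairs (horizontal axis). Points are single libraries, bars are means of 3 libraries and whiskers are 1 SD; each ratio is higher in all transgenic libraries, by 1.81, 2.81 and 1.00 on the log2 scale from left to right.

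The 3 genes summed to 52.3 ± 0.9 FPKM in control leaves and to 79.8 ± 2.1 FPKM in transgenic leaves (SD, n = 3 each). Of that sum gl2 made up 69.2% ± 0.7 in control leaves and 53.6% ± 1.2 in transgenic leaves. The share of gl1 was 14.8% ± 0.3 and 40.2% ± 1.6, and that of gl8 was 16.0% ± 0.5 and 6.23% ± 0.54 (SD, n = 3 each). The depth behind each share is unknown. The 3 shares add up to the whole, so they are not separate results: the share of gl2 was smaller in transgenic leaves while its FPKM was higher.

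**Figure D5:**
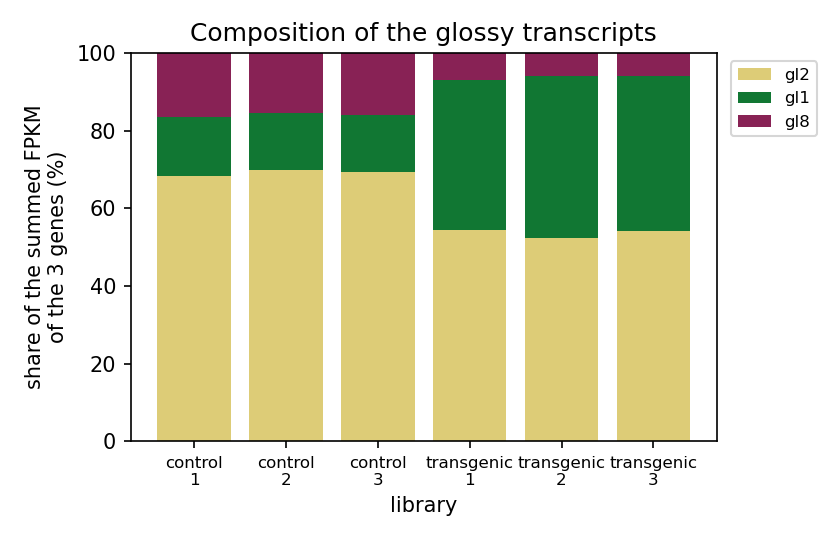
Share of the summed FPKM of gl1, gl2 and gl8 held by each gene, in percent (vertical axis), in each of the 6 libraries (horizontal axis). The gl1 segment is between 14.5% and 15.1% in the control libraries and between 38.7% and 41.8% in the transgenic libraries, while the gl2 and gl8 segments are smaller in the transgenic libraries.

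For each gene the tested gene with the closest profile was sought, by the root mean square difference of log2(FPKM + 1) over the 6 libraries after subtracting each gene's own mean. The closest to gl1 was Zm00001d010321, at a difference of 0.015, with 47.7 ± 1.0 FPKM in control and 183.0 ± 2.3 FPKM in transgenic leaves (SD, n = 3 each). The closest to gl2 was Zm00001d021825, at 0.019, with 27.7 ± 0.3 and 32.2 ± 1.0 FPKM (SD, n = 3 each). The closest to gl8 was Zm00001d014385, at 0.023, with 16.4 ± 0.5 and 10.1 ± 0.8 FPKM (SD, n = 3 each). These genes were picked for their values in the same libraries, so no test of them is given, and the tables give their identifiers no name. Such likeness rests on 6 libraries in 2 groups: within 0.1 of the gl1 profile lay 102 other tested genes, against 816 for gl2 and 1201 for gl8.

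Other genes of the wax pathway were not set beside these 3. A list of 33 symbols of wax and cuticle genes and a list of 21 cell type markers had been drawn up, and the reference table held 6 and 14 of these symbols. Of the listed symbols, 0 were themselves identifiers of the deposited tables. The reference table matched 0 of the 44146 identifiers that start with Zm00001d and 0 of the 51 that start with GRMZM. It matched 153 of the 154 others, but the listed symbols were not looked up among these through the reference table. The leaf label was not checked against markers, and the part of cell type shares in the differences was not tested. The reference table lists gl8b as a gene separate from gl8; whether reads of the pair were split in the counting was not tested. No other gene shared all 6 values with gl1, gl2 or gl8.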

How the data were processed

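Leaf RNA was sequenced in 6 libraries made with a SMARTER mRNA-Seq kit, per the labels' protocols. The authors deposited 1 table of FPKM values per library, rounded to 2 decimals, per the file headers. DESeq2 (no version or role) and mm10 (a mouse build, although the identifiers are of maize) appear in the submitters' processing notes. No source used here names the aligner, the counting program, the maize build or the use of strand. No sequence or coordinate of the genes is given: the reference table (NAM-5.0 assembly of B73) matched 0 of 44146 identifiers that start with Zm00001d.

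The 22944 genes that averaged 0.5 FPKM or more were compared between groups on log2(FPKM + 1) in R 4.3.3 by limma 3.58.1 (moderated with an intensity trend, no covariate, two-sided, Benjamini-Hochberg adjusted p under 0.05). Fold changes on that scale understate changes of low genes. Low values of control replicate 1 and transgenic replicate 1 were searched for a common step. The fullest window of 0.04 in the log2 ratio held 14 of 152 genes, so depth was not derived. Same-numbered libraries correlated at 0.002, -0.051 and 0.002 in their deviations from group means and were not treated as paired. Values were summarised with Python 3.11.15, pandas 2.3.3 and scipy 1.17.1, and plotted with matplotlib 3.10.9. The alternatives were another pseudocount, other filters, 4 scalings, 2 variance models, a replicate block, a stricter threshold and leaving out each library. The named genes were the 3 glossy genes, listed wax genes with a matched identifier, and the closest profile to each glossy gene. The genes and lists were chosen with earlier results of these data known.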

Additional observations from a re-analysis of the deposited data

How the results depend on the processing

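The difference of gl1 kept its direction and its call under all 17 alternatives, between 1.67 and 2.55 on the log2 scale. A stricter threshold, other filters, other variance models and a replicate block leave the estimate at 1.92 by construction. In those only the error or the call could change. Most tested genes were called under each alternative too. That of gl2, 0.23 as deposited, turned to -0.035 at equal FPKM totals and was not called there. That of gl8, -0.66 as deposited, was -0.065 by the median of ratios and -0.020 by quantile normalisation, uncalled in both; these scalings remove the shift shared by most genes by construction. The median difference of all tested genes, -0.56, was -0.69 on adding 0.1 in place of 1 to the FPKM, -0.26 if every gene above 0 was tested, -0.61 if a mean of 2 FPKM was required, -0.78 at equal FPKM totals, -0.32 when the 100 most abundant genes were left out of the totals, -0.015 by the median of ratios and -0.044 by quantiles. With a pseudocount of 1 the changes of the within-library log2 ratios were 1.69 for gl1 to gl2, 2.58 for gl1 to gl8 and 0.89 for gl2 to gl8. Leaving out single libraries gave 1.90 to 1.95 for gl1, 0.21 to 0.27 for gl2 and -0.73 to -0.61 for gl8, all called, and -0.56 to -0.55 for the median; the ratio changes were 1.77 to 1.85, 2.75 to 2.91 and 0.96 to 1.06. With a replicate block the differences, fixed by the balanced design, were again 1.92, 0.23 and -0.66. The block left 19187 genes called in place of 19278. With the block, no call among the 3 genes changed. The unknown depth limits what can be said of counting error, most of all for gl8, the lowest in the transgenic libraries.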
